A study of Mus musculus with 12 samples.

Results

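The transition from mouse embryonic stem cells (ESC) to neural progenitor cells (NPC) was followed in cells that carried a control short hairpin RNA, with no intended target. It was measured by the 3 arrays titled LKOScr of the NPC state set against the 3 arrays titled LKOScr of the ESC state, which were 6 of the 12 arrays of the series. The compared features were 18784 genes, each represented by 1 probe set of the Affymetrix MoGene 1.0 ST array: all probe sets with exactly 1 gene symbol were taken, and where a gene had several the one with the highest mean was kept. Every difference below is NPC minus ESC in log2 units, so that 1 unit is a 2-fold change. The other 6 arrays carried a hairpin against Jarid1b, the gene now named Kdm5b, which encodes a demethylase of lysine 4 of histone H3.

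Both control groups came from the feeder-independent ESC line E14TG2a.4, which was grown on gelatin with the cytokine LIF. The cells were transduced for 16 hours with a pLKO.1 lentivirus that carried the scrambled hairpin, and puromycin was added 48 hours after transduction, so the ESC and NPC controls both held the vector, the hairpin and the selection marker. NPC were derived by a published differentiation protocol, and the labels do not give the day of collection. All cultures descend from 1 cell line, and the labels do not say whether replicates 1 to 3 were separate cultures, so the p-values measure the spread between arrays.

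Embryonic stem cells keep a self-sustaining network of transcription factors, among them Pou5f1 (Oct4), Sox2 and Nanog, which holds them in a state able to form every tissue of the embryo. In the protocol used here as generally described, stem cells form floating aggregates and are treated with retinoic acid, a vitamin A derivative that binds nuclear receptors on DNA and that in the embryo gives hindbrain and spinal cord their position along the body axis. Progenitors formed in this way resemble radial glia, the dividing cells of the early neural tube, which express Pax6, Nes and Fabp7 and give rise to neurons through proneural factors held in check by Notch signalling.

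The promoters of 3 genes of the transition carried sequence elements known from these systems, and they are shown here because these genes are among the large changes described below. They are the 250 bases before the RefSeq gene start in the mouse build GRCm38.p6, written from 5′ to 3′ on the gene's strand, with the matching element in capitals. Rarb, on the minus strand at chr14:16575477-16575726, encodes a retinoic acid receptor; the capitals mark a retinoic acid response element of the DR5 type, a direct repeat with a 5-base spacer. Cyp26a1, on the plus strand at chr19:37697558-37697807, encodes an enzyme that breaks down retinoic acid, and the capitals mark a DR5 element read on the opposite strand. Nanog, on the plus strand at chr6:122707239-122707488, carries a composite of an octamer and a Sox element.
Rarb: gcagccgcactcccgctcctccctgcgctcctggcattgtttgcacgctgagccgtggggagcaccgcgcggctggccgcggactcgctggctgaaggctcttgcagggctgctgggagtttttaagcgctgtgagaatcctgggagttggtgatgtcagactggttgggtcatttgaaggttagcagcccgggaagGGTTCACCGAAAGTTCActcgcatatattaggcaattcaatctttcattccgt
Cyp26a1: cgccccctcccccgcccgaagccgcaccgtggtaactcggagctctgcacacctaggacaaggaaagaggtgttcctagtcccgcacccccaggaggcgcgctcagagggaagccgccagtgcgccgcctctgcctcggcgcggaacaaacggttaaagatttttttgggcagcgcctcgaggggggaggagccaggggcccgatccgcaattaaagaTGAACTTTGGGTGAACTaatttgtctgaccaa
Nanog: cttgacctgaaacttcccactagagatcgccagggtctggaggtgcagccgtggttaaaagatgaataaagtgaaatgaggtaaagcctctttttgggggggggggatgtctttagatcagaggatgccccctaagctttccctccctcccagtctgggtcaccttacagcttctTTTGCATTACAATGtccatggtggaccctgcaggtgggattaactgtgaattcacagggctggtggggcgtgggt

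The DR5 element, searched by its consensus on both strands, was found in 32 of 32851 promoter windows of RefSeq genes, or 0.097%. Among the 15060 measured genes with a window it was found in 10, of which Rarb and Cyp26a1 were the only ones among the 1202 that were at least 2-fold higher in NPC, and none was among the 1072 that were at least 2-fold lower. The composite TTTGCATNACAATG was found in 2 windows, or 0.006%, and both belonged to Nanog. Its letters are those of the Nanog element with no free letter but the N, so a match in Nanog was given in advance. Composites with other letters were not counted, and the search does not show whether other genes carry them. Its first part alone, the octamer TTTGCAT, was found in 4.87% of measured genes, 5.41% of the strongly higher genes and 5.5% of the strongly lower genes. A match describes the letters in a window and is not a measured binding site.

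A large part of the measured genes differed between the states. By limma with Benjamini-Hochberg adjustment over 18784 genes, 4406 genes were higher in NPC and 4716 were lower at adjusted p under 0.05, or 23.5% and 25.1% of the genes tested, 48.6% in all. Every count of list members below is to be read beside these shares. Because so many genes passed, "strongly" is used below for a difference that passed the test and was at least 2-fold: 1551 genes (8.26%) were strongly higher and 1380 (7.35%) strongly lower, 15.6% in all. A difference of at least 16-fold was reached by 48 genes in each direction, and of at least 32-fold by 10 higher and 19 lower genes. The 3 arrays of one state did not overlap the 3 of the other for 9831 genes, or 52.3%.

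The arrays were alike in their medians and correlations, though not for every gene list, as given below. Medians of the control arrays lay between 7.70 and 7.77 on the log2 scale, correlations across genes were 0.992 to 0.996 within a control group and 0.921 to 0.927 between ESC and NPC, and the median gene's SD was 0.136 in ESC and 0.141 in NPC. In the knockdown groups the median SD was lower, 0.101 in ESC and 0.0997 in NPC. The model pools the spread of all 12 arrays, so the SEs below draw on these quieter arrays too. The files hold no detection calls, so the lowest lower quartile of an array, 5.84, serves below as the mark of a low level. Kdm5b, the target of the other hairpin, checks the labels: it read 12.25, 12.47 and 12.50 in the control ESC arrays and 10.64, 10.90 and 10.50 in the knockdown ESC arrays. These were bulk cultures, in which fewer cells of a type and less RNA per cell cannot be told apart.

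**Figure D1:**
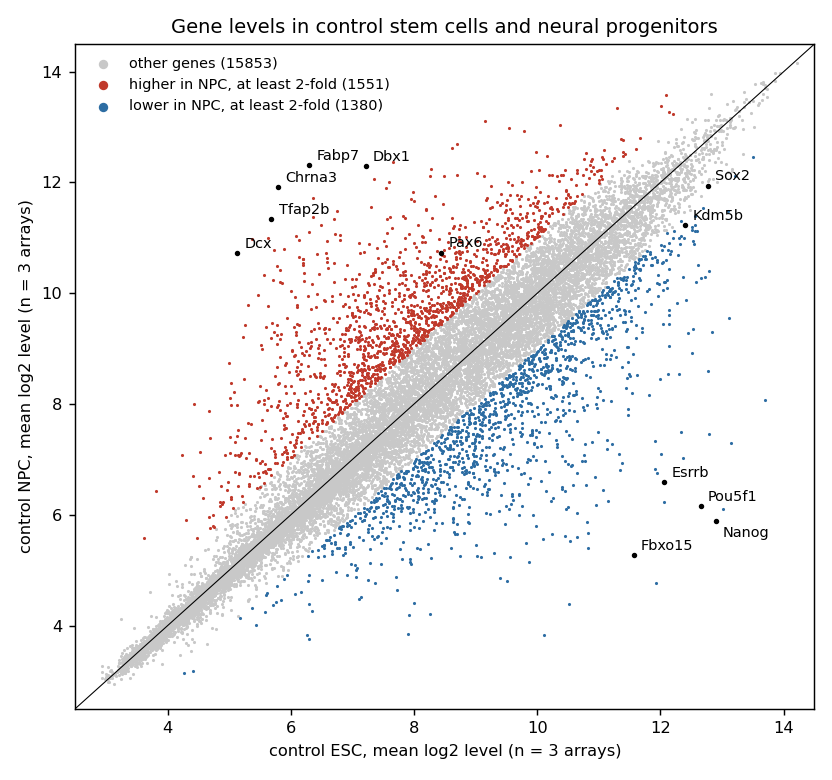
Mean log2 level of each of the 18784 genes in control ESC (horizontal axis, n = 3 arrays) and control NPC (vertical axis, n = 3 arrays); red points are the 1551 strongly higher genes, blue points the 1380 strongly lower genes, and the line marks equal levels. Pou5f1, Nanog, Esrrb and Fbxo15 lie far below the line, Chrna3, Fabp7, Tfap2b and Dcx far above it, and Sox2 lies near it at the top.

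Nearly all factors of the pluripotency network were far lower in NPC, with Sox2 as the exception among its central members. Of 22 measured pluripotency transcription factors, 19 fell, 18 of them strongly, with a median difference of -3.61, beside -0.04 over all genes. Of 25 further genes tied to pluripotency, 24 fell and 23 of these strongly, with a median of -3.56.

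Nanog, a homeodomain factor of the naive stem cell, read 12.82, 12.99 and 12.89 in the ESC arrays and 4.70, 6.45 and 6.53 in the NPC arrays. The groups were far apart, and NPC replicate 1 lay well below the other NPC arrays. It fell by 7.0 ± 0.52 (SE), or 128-fold (adjusted p = 1.15e-07, limma). Pou5f1 (Entrez 18999), the POU factor without which pluripotent cells do not form, read 12.62, 12.71 and 12.64 in ESC and 5.83, 6.11 and 6.55 in NPC. It fell 90.2-fold, again with NPC replicate 1 lowest. The Nodal co-receptor Tdgf1 went from 12.99, 13.02 and 13.05 to 6.09, 6.10 and 6.14, a drop as even across arrays as it was large (120-fold). Esrrb, an orphan nuclear receptor, fell by 5.48 ± 0.108, and the chromatin-associated factor Utf1 fell by 5.32.

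Sox2 differed from its partners. It read 12.76, 12.76 and 12.79 in ESC and 11.89, 12.15 and 11.79 in NPC. All NPC arrays were below all ESC arrays, yet the fall was 1.77-fold (-0.83 ± 0.104, adjusted p = 1.59e-05). Sox2 also marks neural progenitors. Klf4, a zinc finger factor of the naive state, fell by 2.66, Sall4 fell by 2.09 and the RNA-binding protein Lin28a by 2.27. Myc was the member that rose among the transcription factors, by 0.56 (adjusted p = 0.000519). Lin28b, the paralogue of Lin28a, rose by 0.57 (adjusted p = 0.0166). Without control ESC replicate 1 its difference was 0.36 (adjusted p = 0.0741), and the call was also lost with array weights (0.35, adjusted p = 0.0874) and without control NPC replicate 2 (0.0627) or 3 (0.0501). Stat3 (-0.27) and Gbx2 (-0.23) did not pass the test.

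Other genes among the steepest falls were known from stem cells and the germ line. The zinc finger gene Zfp980 read 11.73, 12.01 and 12.04 in ESC and 3.61, 6.15 and 4.57 in NPC, the largest fall of a named gene (142-fold) and also one with wide spread in NPC. Its relative Zfp979 went from 9.98, 10.19 and 10.15 to 3.70, 4.03 and 3.75 (77.8-fold), with no such spread. Zfp979 and Zfp980 belong to a large zinc finger family with similar members, so their probes may share signal. Fbxo15 fell by 6.30 ± 0.403, Dppa2 by 6.13 ± 0.276, and Morc1, a gene of transposon silencing in germ cells, by 5.04. Of 21 germ cell genes, 17 fell and 14 of these strongly (median -1.38). Among them the meiotic axis gene Sycp3 fell by 4.54, the piRNA pathway gene Mael by 4.26, the germ cell helicase Ddx4 by 2.77 and the RNA-binding protein Dazl by 2.12. The germ cell list also holds Stra8, a gene switched on by retinoic acid at the start of meiosis, which was the member that rose. Its arrays read 6.11, 6.54 and 6.11 in ESC and 7.54, 8.68 and 7.79 in NPC (1.75 ± 0.331).

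Genes of the formative state, through which stem cells pass on their way to germ layers, fell more often than they rose. Of 14, 8 fell and 3 rose, with a median of -0.47; of the 6 defining ones 5 fell and none rose. Otx2, a homeodomain factor of this state and later of forebrain and midbrain, read 11.05, 11.21 and 11.17 in ESC and 6.59, 6.01 and 6.13 in NPC. It fell 29.9-fold, with no overlap. Dnmt3b, a de novo DNA methyltransferase, fell by 2.84 ± 0.173, while Fgf5 fell by 0.88 and Pou3f1 by 0.57. Of the other members Sox4 rose by 2.08 and Sall2 by 1.56.

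**Figure D2:**
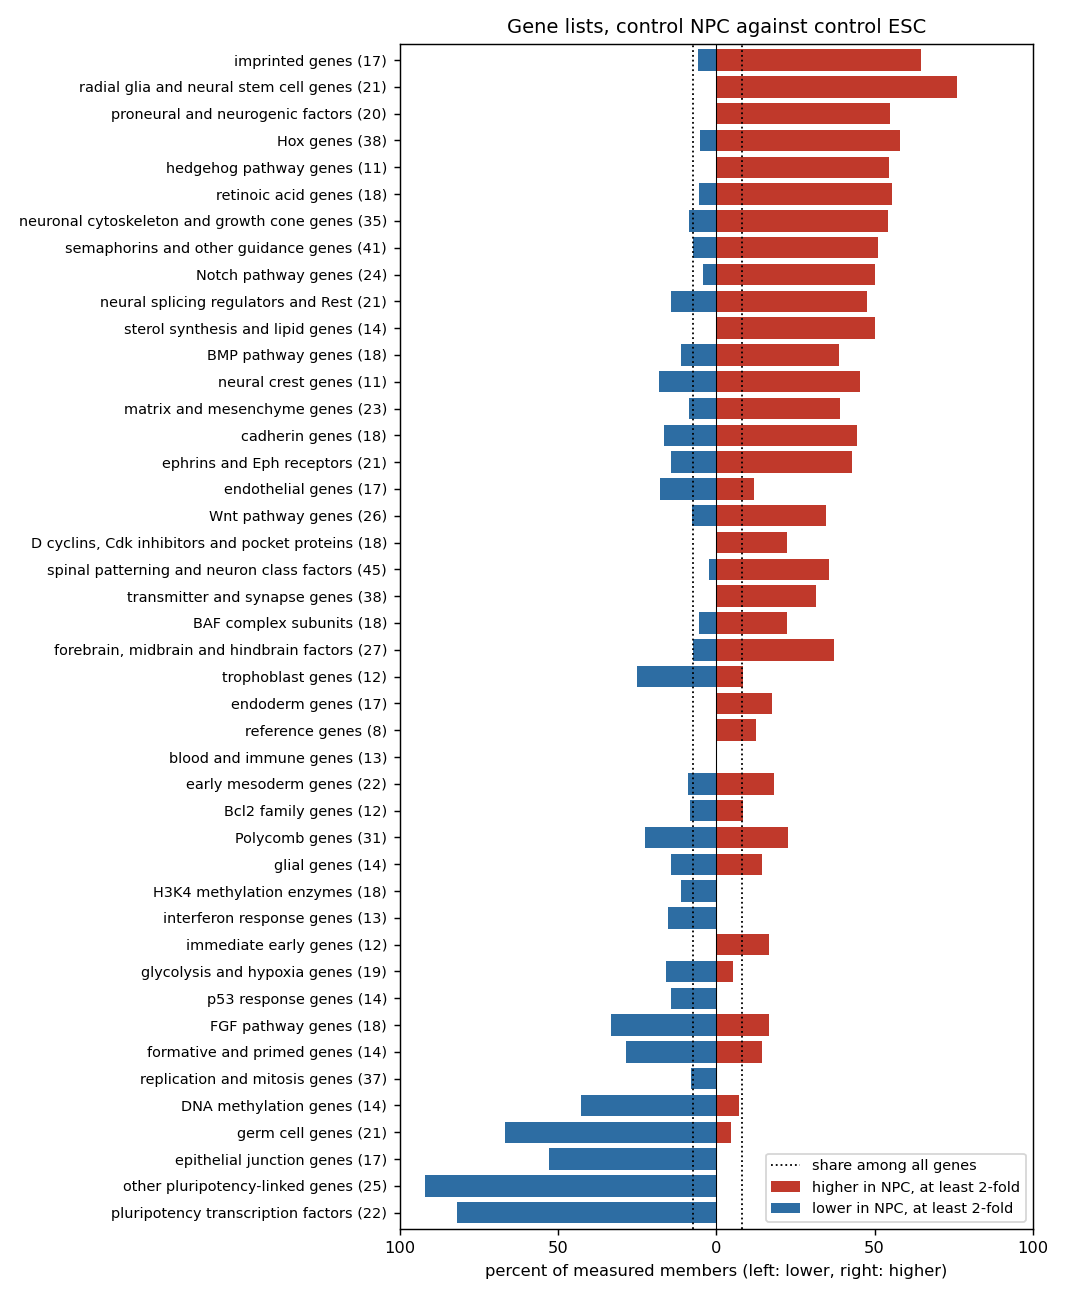
Share of measured members (horizontal axis, percent; number of members in parentheses) that were at least 2-fold higher (red, to the right) or lower (blue, to the left) in control NPC, for the gene lists ordered by their median difference. The dotted lines mark the 8.26% and 7.35% of all genes; the lists of pluripotency, epithelial junction and germ cell genes reach farthest to the left, and the radial glia list farthest to the right.

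Markers of neural progenitors rose as a group. Of 21 radial glia and neural stem cell genes, 19 rose, 16 of them strongly, with a median of 1.89. All 9 measured defining markers rose. Fabp7, a lipid-binding protein of radial glia, read 5.93, 6.01 and 6.94 in ESC and 12.72, 12.04 and 12.18 in NPC, a 64.8-fold rise (6.02 ± 0.245). Pax6, which specifies dorsal and intermediate progenitors, read 8.2, 8.84 and 8.27 in ESC and 10.69, 10.98 and 10.53 in NPC. Every NPC array was above every ESC array, and the rise was 4.89-fold (2.29 ± 0.196). Nes, the intermediate filament of progenitors, rose by 2.24 ± 0.177 and the RNA-binding protein Msi1 by 2.58. Sox1, an early marker of the neural plate, rose less, from 9.02, 8.63 and 8.63 to 9.78, 10.22 and 9.46 (1.06 ± 0.217, adjusted p = 0.00103). Vim (0.77) and Ncam1 (0.93) rose by less than 2-fold. Sox9, which marks stem cells of the later neural tube, read 7.69, 7.57 and 7.45 in ESC and 11.35, 11.33 and 11.33 in NPC, with hardly any spread, a rise of 3.77 ± 0.0973. Rfx4, a factor of neural tube progenitors, rose by 4.34 and the endothelin receptor Ednrb by 4.83. Hes1, a repressor that Notch induces, was the member that fell (-0.57 ± 0.181, adjusted p = 0.0181), a call lost without control ESC replicate 3 (0.0900) or control NPC replicate 2 (0.0837).

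In the Notch pathway 16 of 24 genes rose, 12 strongly, and 4 fell (median 1.0). The ligand Dll1, made by cells about to become neurons, read 8.0, 8.64 and 8.61 in ESC and 10.69, 10.83 and 10.31 in NPC. The states did not overlap, and Dll1 rose by 2.19 ± 0.186. Dll3 rose by 2.00 and the receptor Notch1 by 1.11. Of the targets, Hes5 rose by 1.43, Hey1 by 2.38 and the feedback inhibitor Nrarp by 2.34. Hes1, also in this list, read 9.68, 9.49 and 10.04 in ESC and 9.14, 8.89 and 9.47 in NPC, so that all NPC arrays lay below the ESC arrays. Notch4, the receptor best known from blood vessels, fell by 1.73.

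The proneural list, the basic helix-loop-helix and related factors that start neurogenesis, had 14 of 20 members higher, 11 strongly, and 1 lower (median 1.65). Neurog2 read 7.03, 7.06 and 7.01 in ESC and 9.66, 9.08 and 9.34 in NPC, a rise of 2.33 ± 0.155. Neurog1 rose by 2.90. Among the other factors, Neurod4 went from 5.71, 5.44 and 5.55 to 10.44, 10.06 and 10.50 (4.77 ± 0.194), Nhlh1 rose by 4.51 and Ebf3 by 4.25. Neurod4 lay below the low mark of 5.84 on every ESC array. Myt1 rose by 2.02 and Insm1 by 1.41, while Olig2 (0.78) and Neurod1 (0.58) rose by less than 2-fold.

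Neuronal genes were also higher in the NPC cultures. Of 35 cytoskeleton and growth cone genes 26 rose, 19 strongly, and 5 fell (median 1.08), and the mean of the list went from 8.72 to 8.79 across ESC arrays to 9.85 to 10.03 across NPC arrays. Dcx, a microtubule-binding protein of migrating young neurons, read 5.19, 4.92 and 5.29 in ESC and 10.83, 10.62 and 10.70 in NPC, a 48.1-fold rise. Tubb3, the neuronal beta tubulin, rose by 1.17 ± 0.138, the RNA-binding protein Elavl4 by 2.71, the adhesion protein Cntn2 by 2.94 and Map2 by 1.86. Nefm, a neurofilament subunit, differed among the NPC arrays: it read 6.06, 6.62 and 6.71 in ESC and 7.96, 10.04 and 8.77 in NPC (2.46 ± 0.398).

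Some genes usually counted as neuronal moved the other way. Stmn2, a tubulin-binding growth cone protein, read 12.63, 12.53 and 12.37 in ESC and 11.21, 11.11 and 11.10 in NPC, and fell 2.59-fold. All ESC arrays were above all NPC arrays. Nefh, the heavy neurofilament subunit, fell by 1.76, and Gng3, a G protein subunit, by 1.4. The microtubule protein Mapt (-0.07, adjusted p = 0.74) and the filament protein Ina (0.24) did not pass.

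Of 38 transmitter and synapse genes, 18 rose, 12 strongly, and 4 fell, none strongly (median 0.23). Chrna3, a subunit of the nicotinic acetylcholine receptor, had the largest rise of any named gene: 5.67, 5.83 and 5.86 in ESC against 11.98, 11.70 and 12.07 in NPC, or 69.9-fold (6.13 ± 0.115, adjusted p = 1.70e-12). The 3 arrays of each state lay within a narrow band. In RefSeq, Chrna3 is flanked by Chrna5 and Chrnb4, and those subunits, taken after their values were seen, rose by 3.00 ± 0.184 and 3.03 ± 0.225. The gene beyond Chrna5, the proteasome subunit Psma4, fell by 0.24, and the gene beyond Chrnb4, Ube2q2, rose by 0.46. Elsewhere in the genome the subunits Chrna4 and Chrnb2 rose by 3.33 and 1.86, and Chrna9 fell by 2.82. Of all 16 measured nicotinic subunits, a family also picked after its values were seen, 6 rose, 5 strongly, and 1 fell (median 0.07). Of the general synaptic genes, the release proteins Snap25, Syp and Syt1 rose by 2.18, 1.97 and 1.78. Syt4 (0.08) did not pass, and Syn1 fell by 0.49 (adjusted p = 0.0138, limma). The Syn1 call was lost with array weights (0.085) and with the 6 control arrays alone (0.0548). It was also lost without control ESC replicate 2 (0.0531) or control NPC replicate 2 (0.0600) or 3 (0.0687).

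The transporters and enzymes that define transmitter types moved in both directions. Slc17a6, the vesicular glutamate transporter of this region, read 5.25, 5.21 and 5.12 in ESC and 5.33, 5.09 and 4.70 in NPC (-0.16 ± 0.136, adjusted p = 0.388), below 5.84 on every array. Chat (-0.16), Gad1 (-0.23) and Slc32a1 (0.24) did not pass the test, although Slc32a1 did with array weights (adjusted p = 0.0134), after quantile normalization (0.0254) and without control NPC replicate 2 (0.0268). Gad2, an enzyme of GABA synthesis, rose by 1.59 ± 0.112, the monoamine transporter Slc18a2 by 2.31 and the glycine transporter Slc6a5 by 1.2, and Th, the first enzyme of dopamine synthesis, by 0.56. The glutamate transporter Slc17a7 fell by 0.76, the acetylcholine transporter Slc18a3 by 0.48 and the decarboxylase Ddc by 0.82. In all, 6 of the 38 members had means below the low mark in both states.

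The Hox genes, which give cells their position along the body axis, differed by paralogue group. They lie in 4 clusters and are numbered from head to tail. All 22 measured genes of groups 1 to 8 rose, 21 of them strongly, with a median of 3.03 and a range from 0.51 for Hoxd1 to 5.05 for Hoxa2. Of 16 measured genes in groups 9 to 13, 1 rose and 6 fell, with a median of -0.08. The gene that rose was Hoxb9, from 7.78, 7.47 and 7.53 in ESC to 12.16, 11.68 and 12.16 in NPC (4.41 ± 0.157, 21.3-fold).

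Hoxa2, which patterns the hindbrain, read 5.89, 5.54 and 5.76 in ESC and 10.87, 10.74 and 10.73 in NPC. It went from about the low mark to a level far above it in all 3 arrays, 33.2-fold. Hoxc5 rose by 4.96, Hoxb8 by 4.81, Hoxa5 by 4.61 and Hoxb5 by 4.37. The median difference was 3.98 over groups 2 and 3, 3.80 over groups 4 and 5 and 2.04 over groups 6 to 8. By cluster, strong rises were counted for 9 of 10 Hoxb genes, 6 of 10 Hoxa genes, 4 of 9 Hoxc genes and 3 of 9 Hoxd genes. At the posterior end Hoxc13 read 7.87, 7.59 and 7.93 in ESC and 6.14, 5.91 and 6.35 in NPC, a fall of 1.66, and Hoxc12 fell by 1.44. Both started at levels above the low mark in ESC.

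**Figure D3:**
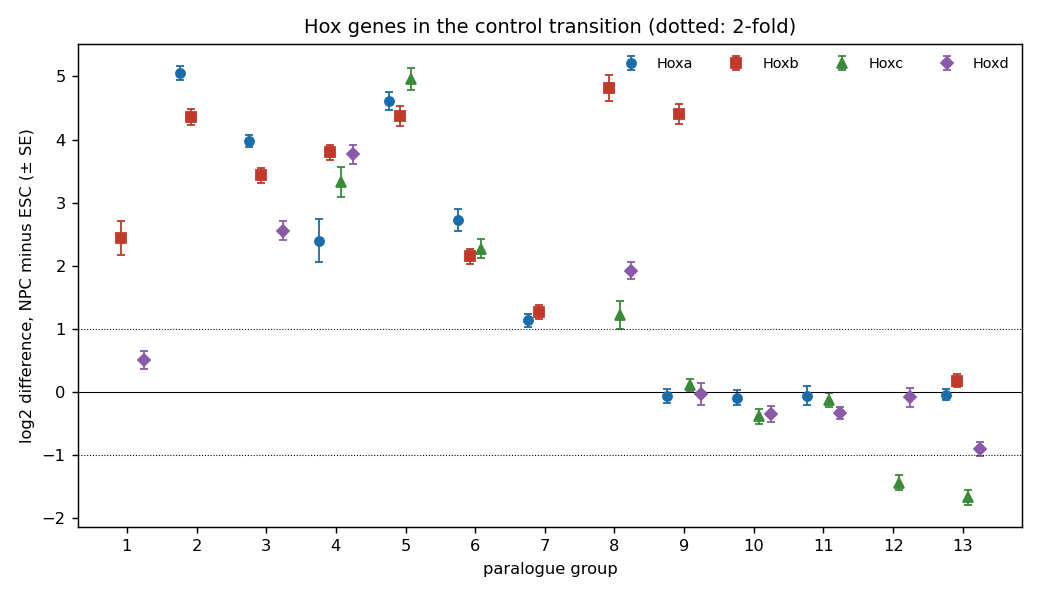
Difference between control NPC and control ESC (vertical axis, log2, with SE from limma, n = 3 arrays per state) for the 38 measured Hox genes by paralogue group (horizontal axis) and cluster (colour and symbol); dotted lines mark 2-fold. Groups 1 to 8 lie above 0, with all but Hoxd1 above the upper dotted line, and in groups 9 to 13 only Hoxb9 does.

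Factors of the spinal cord rose more often than they fell. Of 45 spinal patterning and neuron class factors 23 rose, 16 strongly, and 4 fell (median 0.33). Dbx1, which marks the progenitors midway between dorsal and ventral, read 7.69, 6.95 and 7.0 in ESC and 12.36, 12.38 and 12.13 in NPC, a 33.7-fold rise. Pax3 and Msx3, of the dorsal neural tube, rose by 4.34 ± 0.12 and 3.38, Irx3 by 3.01 and Msx1 by 2.42. Lhx1 and Pax2, made by young interneurons, rose by 3.87 and 2.87. The roof plate ligand Wnt1, counted in the list of forebrain, midbrain and hindbrain factors, rose by 3.64. The other dorsal members of the spinal list were mixed. Pax7 rose by 1.64 and Lbx1 by 0.93, while Tlx3 (0.27) and the roof plate genes Lmx1a (-0.09) and Gdf7 (-0.15) did not pass. Dbx2 (0.29) did not pass either.

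Among factors of the ventral neural tube, Shh, the ventral signal, changed by 0.27 and did not pass (adjusted p = 0.0746), but passed with the replicate block on the 6 control arrays (0.0449), with array weights (0.0254), after quantile normalization (0.0146) and without control ESC replicate 1 (0.0329). Nkx2-2 (-0.26) and the motor neuron factor Mnx1 (0.19) did not pass, although Nkx2-2 did after quantile normalization (0.0487) and without control ESC replicate 3 (0.0463). Nkx6-1 rose by 0.33, but missed the threshold when control ESC replicate 2 (adjusted p = 0.0624) or 3 (0.0680) or control NPC replicate 1 (0.0724) or 3 (0.0815) was left out and with the 6 control arrays alone (0.0688). The floor plate factor Foxa2 rose by 0.43 and Olig2 by 0.78. Nkx2-9 fell by 1.95. Isl1, a factor of motor and dorsal interneurons, rose by 1.56.

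Of 27 forebrain, midbrain and hindbrain factors, 12 rose, 10 strongly, and 7 fell, 2 strongly (median 0.10). The Hox cofactors Meis1 and Meis2 rose by 3.99 and 4.02, and the zinc finger factor Egr2, of hindbrain segments 3 and 5 in the embryo, rose by 1.23. Meis2 read 7.79, 8.66 and 9.39 in ESC, a wide spread, and 12.59, 12.65 and 12.65 in NPC. The strong falls were Otx2, given above, and En2, of midbrain and anterior hindbrain, at -1.32. The forebrain factors Six3 (-0.13), Nkx2-1 (0.11) and Dlx2 (0.00) did not pass the test, apart from Nkx2-1 without control ESC replicate 1 (0.29, adjusted p = 0.0160), and Emx2 rose by 1.39.

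The retinoic acid system changed at each step, in receptors, binding proteins, synthesis and breakdown. Of 18 members 12 rose, 10 strongly, and 2 fell (median 1.19). Rarb, whose promoter is printed above, read 6.45, 6.25 and 6.39 in ESC and 12.02, 11.11 and 12.02 in NPC (5.35 ± 0.201, 40.8-fold, adjusted p = 2.46e-10). Its relative Rarg, the main receptor of the epiblast, read 11.27, 11.61 and 11.62 in ESC and 8.36, 8.38 and 8.77 in NPC, and fell 7.99-fold. The receptors moved in opposite directions with no overlap in either. Cyp26a1, the other gene with a DR5 match, read 6.53, 6.04 and 6.09 in ESC and 10.57, 9.71 and 10.80 in NPC (4.14 ± 0.279, 17.6-fold). The related enzyme Cyp26b1 rose by 3.81. NPC replicate 2 was the lowest NPC array for Rarb, Cyp26a1 and Cyp26b1 (10.14 against 11.52 and 11.07). The binding proteins Crabp2 and Crabp1 rose by 4.71 and 2.04, the reductase Dhrs3 by 2.93, the dehydrogenase Rdh10 by 2.18 and the retinol receptor Stra6 by 2.90. Aldh1a2, which makes retinoic acid, read 7.0, 8.60 and 9.35 in NPC and 6.74, 7.09 and 7.07 in ESC, so that NPC replicate 1 lay among the ESC arrays. Its rise of 1.35 (adjusted p = 0.0142) did not pass without control NPC replicate 2 (adjusted p = 0.0542), without control NPC replicate 3 (0.0628), with array weights (0.0930) or with the 6 control arrays alone (0.0509).

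In several gene families one member fell as another rose, and these families were picked after their values were seen. Among 11 POU genes, Pou5f1 fell while Pou3f4, Pou3f2 and Pou3f3, factors of neural progenitors and neurons, rose by 4.26, 3.06 and 2.39. Among 5 Tfap2 genes, Tfap2c, a factor of germ cells and trophoblast, read 10.53, 10.45 and 10.44 in ESC and 5.45, 6.37 and 6.52 in NPC, a 20.5-fold fall. Tfap2b, a factor of neural crest and hindbrain neurons, went from 5.80, 5.59 and 5.65 to 11.16, 11.69 and 11.17, a 50.4-fold rise. Of 19 Sox genes 7 rose strongly, with Sox11 at 3.44, and the 1 strong fall was that of Sox15, from 11.03, 10.81 and 11.11 to 7.59, 7.64 and 7.27. The Klf family went mostly one way: of 17 genes 7 fell strongly, among them Klf8 (-3.67), Klf2 (-3.65) and Klf9 (-3.56), and Klf7 rose by 1.23.

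**Figure D4:**
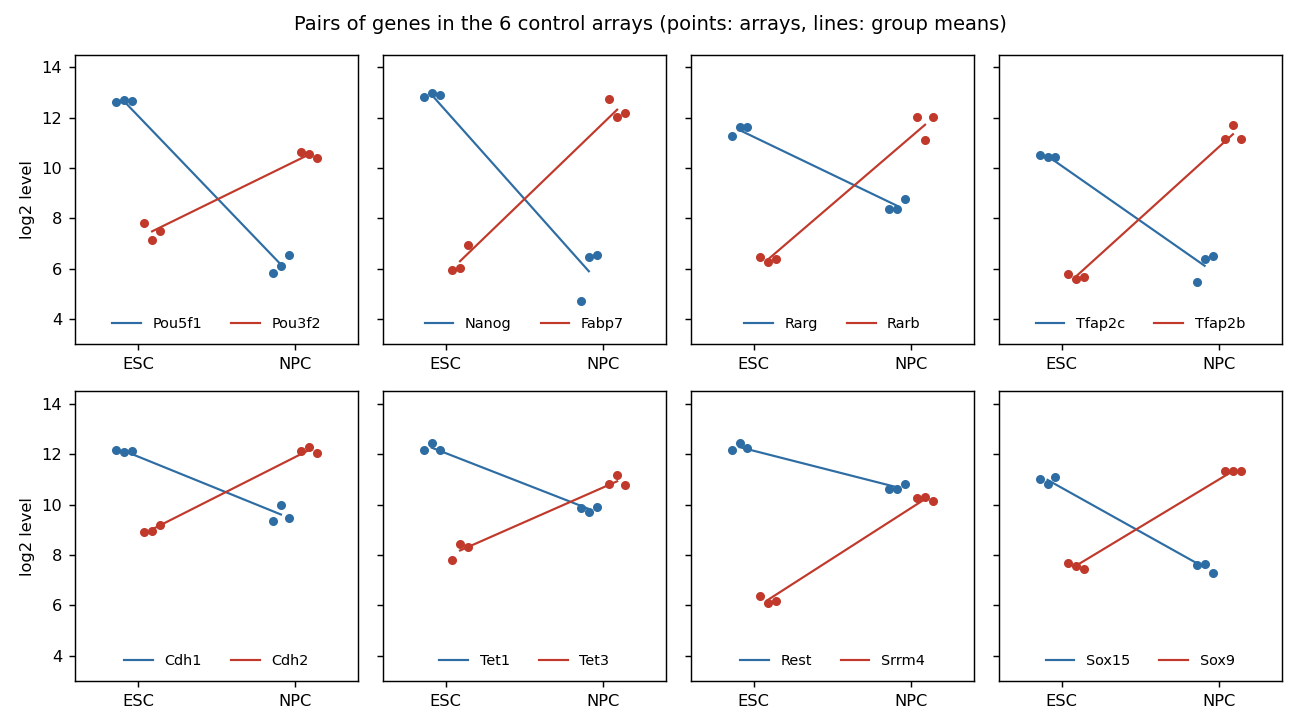
Log2 level in the 3 control ESC and 3 control NPC arrays (points; lines join group means) for 8 pairs of genes, one falling (blue) and one rising (red). The states do not overlap for any of the 16 genes, and the spread of Nanog in NPC is the widest; heights of different genes in a panel cannot be compared, since each is read by its own probes.

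The cadherins, which hold like cells together, included a fall of the epithelial and a rise of the neural form. Cdh1, the epithelial cadherin, read 12.18, 12.11 and 12.13 in ESC and 9.37, 9.99 and 9.47 in NPC, a 5.78-fold fall. Cdh2, the neural cadherin, read 8.90, 8.97 and 9.19 in ESC and 12.14, 12.31 and 12.06 in NPC, an 8.89-fold rise. Of 18 cadherins 10 rose, 8 strongly, and 3 fell, all 3 strongly. Cdh11, Cdh6 and Cdh8 rose by 4.53, 4.16 and 3.40, and Cdh3 fell by 1.81. Epithelial junction genes fell: of 17, 11 fell, 9 of them strongly, and 1 rose (median -1.5), with the adhesion protein Epcam at -1.99 and the epithelial splicing regulator Esrp1 at -2.02.

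Guidance genes, which steer growing axons and migrating cells, rose in large number. Of 41 semaphorins, netrin and Slit receptors and their relatives 29 rose, 21 strongly, and 9 fell, 3 strongly (median 1.02). The netrin receptor Unc5a rose by 4.71, Dcc by 4.42 ± 0.113, the ligand Sema6d by 4.03, Nrp1 by 3.65 and the Slit receptor Robo2 by 2.99. Of 21 ephrins and Eph receptors 11 rose, 9 strongly, and 5 fell, 3 strongly. Epha3 went from 5.62, 5.30 and 5.20 to 11.33, 10.49 and 11.09 (48.5-fold), while Epha2 fell by 1.37.

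Signalling pathways differed in their counts. In the FGF pathway 7 of 18 genes rose and 9 fell (median -0.31). Fgf4, the ligand that stem cells make, fell by 4.83 and the target genes Etv5 and Spry4 fell by 2.33 and 2.30, the target Dusp6 rose by 0.95, and the receptors Fgfr2 and Fgfr3 rose by 2.52 and 2.31. In the Wnt pathway 11 of 26 rose and 6 fell. The receptor Fzd5 fell by 2.13 and Fzd3 rose by 3.66. Of the 4 defining genes, Axin2, a general target of the pathway, changed by 0.12 without passing. The other 3 fell by less than 2-fold, Lef1 by 0.93, Sp5 by 0.76 and Tcf7l1 by 0.62. The Lef1 call was lost with the 6 control arrays alone (adjusted p = 0.0541). It was also lost without control ESC replicate 2 (0.113) or 3 (0.127) or control NPC replicate 1 (0.0782) or 2 (0.0975). BMP pathway genes rose in 12 of 18 and fell in 2, with the ligand Bmp7 at 2.77 and Bmp4 at -1.74. Of 11 hedgehog genes 8 rose, 6 strongly, and 2 fell. The co-receptors Boc and Gas1 rose by 3.97 and 3.15 and the repressor Gli3 by 2.31. Of the targets, Hhip rose by 1.36 and Ptch1 by 0.41, and Gli1 fell by 0.50, which missed the threshold when control ESC replicate 2 (adjusted p = 0.0642) or control NPC replicate 1 (0.0602) was left out.

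Markers of other cell types were measured beside the neural ones. Over all genes 23.5% rose and 25.1% fell, and a list whose counts lie near these shares does not stand out from them. Glial genes gave 4 of 14 higher and 3 lower, and their mean lay between 7.21 and 7.43 in ESC arrays and between 7.27 and 7.40 in NPC arrays. Of the astrocyte genes, the glutamate transporter Slc1a2 rose by 2.40 and the enzyme Aldh1l1 fell by 1.60, and Gfap (-0.20) and Aqp4 (-0.08) did not pass. Neural crest genes gave 6 of 11 higher and 4 lower, with Tfap2b and Twist1 (1.45) up and Foxd3 (-2.35), which stem cells also express, down. Sox10, the marker that crest cells keep, differed by -0.24 at the very edge of the threshold (adjusted p = 0.04995), and the call was lost under 9 of the 15 alternatives, with adjusted p up to 0.160.

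Endothelial genes differed among the NPC arrays. Emcn, a sialomucin of vessels, read 4.93, 4.91 and 5.13 in ESC and 7.76, 8.87 and 9.58 in NPC (3.75 ± 0.369), and Cdh5, the vascular cadherin, 6.59, 6.42 and 6.34 in ESC and 8.26, 9.70 and 9.25 in NPC (2.62 ± 0.291). Both were above ESC on every NPC array and lowest on NPC replicate 1. Kdr and Tie1, receptors of vessel cells, rose by 0.96 and 0.86. In all 10 of 17 endothelial genes rose, 2 strongly, and 4 fell, 3 strongly. The strong falls were Eng (-3.03), Tek (-2.72) and Pecam1, which read 9.49, 9.52 and 9.29 in ESC and 6.56, 7.20 and 7.24 in NPC; Pecam1 is also a surface protein of mouse stem cells. The list's mean ranged from 7.33 to 7.46 in ESC and from 7.16 to 7.83 in NPC. NPC replicate 1 was the lowest of the 3 NPC arrays for all 17 members, against 25.4% of all genes, a count made after the values were seen. The same array was lowest for 12 of 22 pluripotency factors and for 1 of 35 neuronal cytoskeleton genes. The part of vessel-like cells in the other results was not tested.

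Early mesoderm genes gave 7 of 22 higher and 4 lower (median 0.00), and endoderm genes 5 of 17 higher and 1 lower (median 0.05). The counts in this paragraph also stand beside 23.5% of all genes higher and 25.1% lower. Foxc2, a factor of paraxial mesoderm and vessels, read 5.91, 5.80 and 5.61 in ESC and 7.85, 8.63 and 9.53 in NPC, Osr1 rose by 2.58 and Meox1 by 1.48, while Eomes fell by 2.26. Gata6, of endoderm and heart, read 7.54, 7.21 and 7.26 in ESC and 8.88, 9.22 and 10.39 in NPC. The liver and yolk sac genes Afp (-0.21), Ttr (0.04) and Hnf4a (-0.05) did not pass the test. Matrix and mesenchyme genes rose in 16 of 23 and fell in 3, with Prrx1 at 2.60. Of 13 blood and immune genes 4 rose and 2 fell, none strongly, and embryonic globin Hbb-y rose by 0.97. Trophoblast genes gave 1 of 12 higher and 4 lower. The mean levels of these lists moved little between the states: 6.85 to 7.05 in ESC against 6.98 to 7.15 in NPC for mesoderm, 6.63 to 6.79 against 6.89 to 7.07 for endoderm and 6.0 to 6.28 against 6.14 to 6.28 for blood. Matrix genes had means of 7.77 to 8.31 in ESC arrays and 8.52 to 8.78 in NPC arrays, and trophoblast genes 7.55 to 8.13 and 7.22 to 7.48.

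Control ESC replicate 1 stood apart from the other ESC arrays for some lists and single genes. The mean of the formative list was 9.65 on it, against 10.03 and 10.11 on replicates 2 and 3. The mean of the matrix list was 8.31, against 7.77 and 7.97. Among the single genes were contractile and epithelial ones. Acta2 read 10.29, 7.45 and 8.19 in ESC and 9.12, 10.05 and 10.10 in NPC, and its difference of 1.11 did not pass (adjusted p = 0.136). Without that array the difference was 1.93 and passed (adjusted p = 0.00154), and it also passed with array weights (0.0427). Tagln, another smooth muscle gene, fell by 1.14 (adjusted p = 0.0307), a call that was lost without control ESC replicate 1 (0.148) or 3 (0.0942), without control NPC replicate 1 (0.106) or 3 (0.0709) and with the 6 control arrays alone (0.0574), also with the replicate block (0.0659). The keratin gene Krt18 was likewise highest on that array among the ESC arrays, at 10.97 against 8.86 and 9.91; its difference of 0.80 passed without it (1.33, adjusted p = 0.00266).

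Genes of DNA replication and mitosis were lower in NPC by small amounts. Of 37, 27 fell, 3 of them strongly, and 1 rose (median -0.50). Mcm2 fell by 0.75, Cdk1 by 0.72 and Ccne1 by 1.22, and the origin recognition subunit Orc1 went from 10.92, 11.05 and 11.00 to 8.05, 8.45 and 8.35. The factor Mybl2, counted in the pluripotency list, fell by 2.71. Mki67, a common marker of dividing cells, read 9.44, 11.53 and 9.48 in ESC and from 9.46 to 11.65 in NPC, with replicate 2 the highest in both states and the states overlapping (0.22 ± 0.559, adjusted p = 0.786). Among cyclins and inhibitors Ccnd2 rose from 9.33, 9.56 and 9.75 to 12.99, 12.93 and 13.03 (10.8-fold), while Ccnd1 changed by -0.26 without passing. The inhibitor Cdkn1c rose by 2.48.

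Kdm5b itself fell in the control transition. It read 12.25, 12.47 and 12.50 in ESC and 11.24, 11.15 and 11.30 in NPC, with no overlap (-1.18 ± 0.11, 2.26-fold lower, adjusted p = 1.00e-06). Of 18 enzymes of H3K4 methylation 7 fell, 2 of them strongly, and 1 rose. The paralogue Kdm5a rose by 0.57, Kdm5c fell by 0.34 and the core subunit Wdr5 fell by 1.10. Polycomb genes, which carry or read repressive histone marks, split into 11 higher and 14 lower of 31, 7 strongly in each direction. The reader Cbx7 fell by 2.23 and Cbx2 and Cbx8 rose by 1.2 and 1.31, Bmi1 rose by 1.60 ± 0.102 and Yaf2 by 2.21, and Phc1, Ezh1 and Eed fell by 1.57, 1.61 and 1.19. Ezh2, the main H3K27 methyltransferase, changed by 0.13 (adjusted p = 0.216) and passed after quantile normalization (0.0461).

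Of 14 DNA methylation genes 3 rose, 1 strongly, and 7 fell, 6 strongly. Dnmt3l, the cofactor of de novo methylation, read 11.91, 12.16 and 12.08 in ESC and 6.07, 6.50 and 6.14 in NPC, a 56.3-fold fall. The enzyme Dnmt3b fell by 2.84, as given above, and Uhrf1, the partner of the maintenance enzyme, by 0.79. Dnmt1 (-0.16) and Dnmt3a (0.01) did not pass. Of the TET enzymes, which oxidise methylcytosine, Tet1 went from 12.16, 12.47 and 12.15 to 9.86, 9.71 and 9.91, Tet2 fell by 1.24, and Tet3 rose from 7.78, 8.45 and 8.30 to 10.84, 11.17 and 10.77. Zfp57, which protects imprinted methylation, fell by 2.37. In the BAF remodelling complex 8 of 18 subunits rose and 4 fell, with Smarca2 at 2.5 and Smarcc2 at 1.61. The pair of actin-like subunits known to exchange when neurons form moved little, Actl6a by -0.53 and Actl6b by 0.47.

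Rest, the repressor of neuronal genes, read 12.16, 12.43 and 12.25 in ESC and 10.63, 10.63 and 10.81 in NPC, 3.01-fold lower. Srrm4, the neuronal splicing factor that alters Rest, read 6.37, 6.10 and 6.19 in ESC and 10.25, 10.28 and 10.13 in NPC, 16.1-fold higher. The falls and rises were even across arrays. Of 21 neural splicing regulators and Rest-linked genes 13 rose, 10 strongly, and 6 fell, 3 strongly. Ptbp2 and Nova1 rose by 1.67 and 2.68, and Ptbp1, the form of dividing cells, changed by -0.08 (adjusted p = 0.396).

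Imprinted genes, expressed from one parental allele, had the highest median of the lists, at 2.23. Of 17, 13 rose, 11 strongly, and 2 fell. Igf2, a fetal growth factor, read 9.78, 7.77 and 8.56 in ESC and 12.32, 12.86 and 12.92 in NPC (16.0-fold). Dlk1, Nnat and Ndn rose by 2.98, 2.98 and 2.24. Some of the list spread widely in NPC: Plagl1 read 8.13, 8.99 and 11.05 and Nnat 9.29, 9.27 and 11.40, with replicate 3 highest for both. Meg3 (-0.11) did not pass and Phlda2 fell by 1.61.

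Of 14 sterol synthesis and lipid genes 13 rose, 7 strongly, and none fell, with Cyp51 at 1.84 ± 0.126 and Scd2 at 1.37. Glycolysis and hypoxia genes gave 2 of 19 higher and 8 lower. Pfkp and Hk2, enzymes of early glycolysis, fell by 2.71 and 1.79, while Ldha (-0.03) did not pass and Vegfa rose by 1.29. Of 14 p53 response genes 2 rose and 7 fell, with Perp at -2.27 and Cdkn1a at 0.50. The survival factor Bcl2 rose by 2.17. Of 8 reference genes 1 rose and 3 fell: B2m, a subunit of the major histocompatibility complex, rose by 1.03, and Actb changed by 0.04 without passing. The Y-linked genes Uty and Eif2s3y fell by 0.98 and 0.90, the second missing the threshold when control ESC replicate 1 (adjusted p = 0.0666) or 3 (0.0688) or control NPC replicate 2 (0.0942) was left out. Xist lay between 4.48 and 5.07 on the 6 arrays; E14 cells are male.

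Immediate early, interferon response and Bcl2 family genes form small lists, counted here beside the 23.5% of all genes that rose and the 25.1% that fell. Of 12 immediate early genes 3 rose and 5 fell, with the transcription factors Jun and Atf3 up by 2.22 and 1.57, and Fos (-0.26) and Egr1 (-0.20) uncalled. Of 13 interferon response genes 1 rose and 6 fell, with the guanylate-binding protein Gbp2 down by 2.69 and the factor Irf1 by 1.75. Of 12 Bcl2 family genes 2 rose and 4 fell.

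Other genes among the steepest changes had mixed functions. Among the 12 largest rises were Dach1, a nuclear factor of eye, limb and neural progenitors, at 5.37 ± 0.182, the integrin subunit Itgb8, by which neural progenitors bind matrix, at 5.02 ± 0.143, and Lgr5, a receptor that strengthens Wnt signals, at 4.92 ± 0.121. Among the 12 largest falls were Zfp42 (Rex1), a marker of naive stem cells, at -5.43 ± 0.158, and Trh, the precursor of a hypothalamic hormone, at -5.34 ± 0.147. The zinc finger factors Zic1 and Tshz1, of the dorsal and the posterior neural tube, rose by 4.74 and 4.75. Of the 1551 strongly higher genes, 134 had an ESC mean below the low mark, and of the 1380 strongly lower ones 141 had an NPC mean below it, so that their folds start or end near the floor of the array.

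The transition in knockdown cells shared no array with that in control cells and allowed the control values to be set beside a second series of cultures. There 14.7% of all genes were strongly changed. Of the 1551 genes strongly higher in the control transition, 1287 (83%) were strongly higher in the knockdown one. Of the 1380 strongly lower, 978 (70.9%) were strongly lower there. These sets were chosen on the control values, so the shares describe the overlap and test nothing. Across the 18784 genes, which are not independent replicates, the differences correlated at r = 0.934.

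The difference between the transitions was tested directly, as an interaction, and 267 genes (1.42%) passed. Of these, 221 had the higher difference in the knockdown and 46 the lower. The count depended on single arrays: it was 35 without knockdown NPC replicate 2, 40 without control ESC replicate 3, 45 without knockdown ESC replicate 3, 546 without control ESC replicate 1, 151 without control ESC replicate 2 and 97 without control NPC replicate 2. It was 154 and 75 without knockdown ESC replicates 1 and 2, and 71 and 176 without knockdown NPC replicates 1 and 3. The unadjusted p was under 0.05 for 2876 genes.

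Kdm5b fell by 1.18 in control cells and changed by -0.21 in knockdown cells, whose ESC arrays were already lower (difference 0.96, adjusted p = 0.0172). The piRNA gene Mael fell by 4.26 in control cells and by 1.60 in knockdown cells, where the arrays read 10.69, 10.77 and 11.08 in ESC and 9.73, 9.07 and 8.94 in NPC (difference 2.66, adjusted p = 0.00227). For Zfp979 the differences were -6.28 in control cells and -4.17 in knockdown cells (adjusted p = 0.000207 for the difference of 2.11), and for Dnmt3l they were -5.81 and -3.49 (adjusted p = 0.00921). Perp, a membrane protein induced by p53, fell by 2.27 in control cells and changed by -0.37 in knockdown cells. Id3, an inhibitor of helix-loop-helix factors, rose by 2.26 in knockdown cells, from 8.48, 8.32 and 8.15 to 10.59, 10.60 and 10.55, against 0.38 in control cells, which did not pass (adjusted p = 0.149) except without control ESC replicate 3 (0.63, adjusted p = 0.0127). These genes other than Kdm5b kept the call when any 1 of the 12 arrays was left out. For Nanog and Pou5f1 the differences did not pass. Nanog fell by 7.0 in control cells, and the knockdown arrays read 13.09, 13.02 and 13.05 in ESC and 8.74, 8.50 and 6.53 in NPC (difference 1.88, adjusted p = 0.244). For Pou5f1 the difference was 1.06 (adjusted p = 0.168). Of 22 pluripotency transcription factors 2 passed, Klf2 (0.99, adjusted p = 0.0151) and Utf1 (1.37, 0.0437), and of 25 further pluripotency genes 6 passed, beside 1.42% of all genes. The calls of Klf2 and Utf1 were lost when some single arrays were left out.

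**Figure D5:**
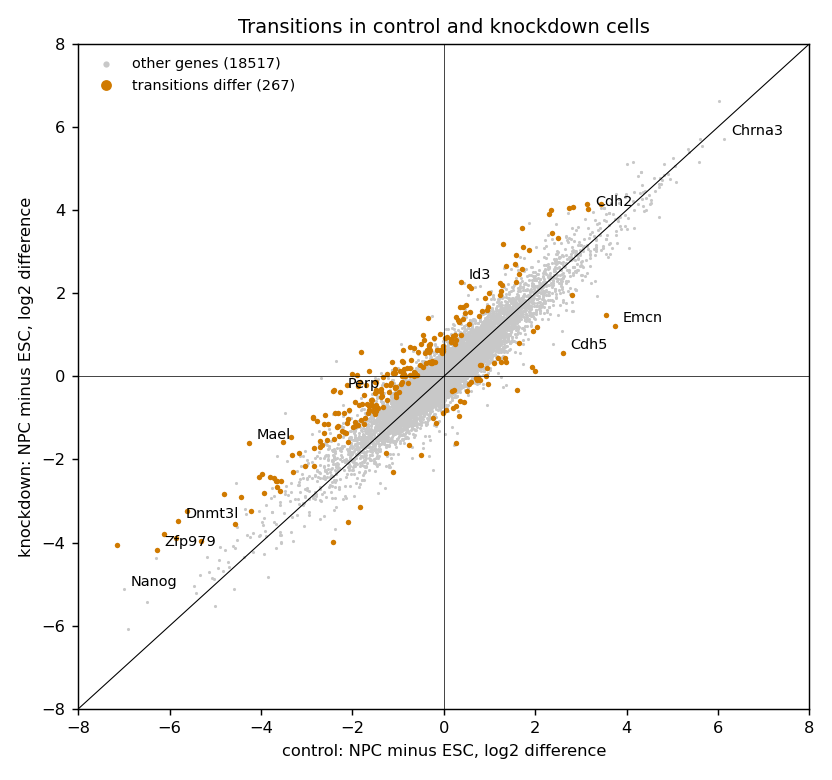
NPC minus ESC difference (log2) of each of the 18784 genes in control cells (horizontal axis) and knockdown cells (vertical axis), with the 267 genes whose transitions differed in orange and the line of equality. Most genes lie along the line (r = 0.934), while Mael, Zfp979, Dnmt3l and Perp lie above it among the falling genes and Emcn and Cdh5 below it among the rising ones.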

How the data were processed

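RNA of 12 arrays was measured, 3 in each of 4 groups. The values are log2 levels per probe set that the authors deposited; the submitters' processing notes name affy, RMA and limma, with no versions or order. Probe annotation and genome build were not given in the sources used here. Low levels are drawn together by RMA, so folds from near the floor are likely too small. Of 21212 probe sets, 18786 had 1 gene symbol, 6 several and 2420 none listed; 18775 matched the RefSeq gene table (GRCm38.p6, used for names and neighbours).

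All 12 arrays entered 1 limma model with a mean for each group (limma 3.58.1, R 4.3.3; 8 residual and 4.81 prior degrees of freedom), with Benjamini-Hochberg adjustment over 18784 genes at 0.05. On simulated data of 18784 genes, 93% of 200 genes changed by 1 log2 unit were recovered in the control comparison and 78% in the difference between transitions. At 0.5 units the shares were 46.5% and 0%. Only these 200 genes changed and the noise of each array was independent, whereas 48.6% of genes passed in the measured control comparison. The threshold on p therefore differed, and the simulated shares do not give the sensitivity of that comparison.

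Named genes were Kdm5b, the 12 largest rises and falls among named, non-overlapping genes, and the defining members of 47 lists. Up to 3 further members per list by size and 2 against the list's direction were added. Other genes stated as such were chosen after their values were seen. Further list members given in the text lay outside this rule, among them Stat3, Gbx2, Th, Lmx1a, Gdf7, Dbx2 and Mybl2. These were given with their values known and were not run through the alternatives as named genes. Of the lists not in the report, both measured 2-cell-like genes fell and 0 of 45 microRNA genes were measured. In the list of Y-linked genes and Xist, given in part above, 3 of 4 measured members fell. Alternatives covered the filter, normalization, weights, the replicate block and single arrays left out. The members and lists were chosen with earlier results of these data known.

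Same-numbered arrays deviated together from their group means (correlations of 0.266, 0.286 and 0.334, against -0.0711 to -0.251 for other pairs), so equal numbers are read as pairs, from the data and not from the labels; the values in the report come from the fit without a replicate block, and the fit with it is an alternative. The precision is limited by 3 arrays per group.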

Additional observations from a re-analysis of the deposited data

Results flagged for a closer look

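For 43 of the 525 named genes the difference between NPC and ESC was not the same in control and knockdown cells, by limma's interaction test at adjusted p under 0.05. Over all 18784 genes 267 passed, or 1.42%. Part of the named genes were chosen for large control differences, so the 43 and the smaller falls among them test nothing about named genes as a group. The values in parentheses are the knockdown difference minus the control difference in log2 units. Smaller falls in knockdown cells were found for these single genes, which do not stand for their lists: Zfp980 (3.10), Zfp979 (2.11), Dppa2 (2.34), Dnmt3l (2.33), Dppa5a (2.38), Klf2 (0.99), Utf1 (1.37), Lefty1 (2.00), Tex19.1 (1.31), Dnmt3b (1.12), Dazl (1.91), Ddx4 (1.68), Mael (2.66) and Tcf15 (0.91). Positive values were also found for the epithelial genes Cldn6 (1.15) and Ap1m2 (1.12), for the neural and guidance genes Cdh2 (0.87), Crmp1 (1.07), Efnb2 (1.32) and Sema3e (1.18), and for the positional and patterning genes Sall2 (1.16), Nkx2-9 (1.34), En2 (1.32) and Hoxc13 (0.79). Among signalling and response genes they were found for Ccn1 (1.85), Btg2 (1.24), Spry4 (0.87), Dusp6 (0.66), Id1 (1.45), Id2 (0.98), Id3 (1.88), Trp53inp1 (0.84), Perp (1.90) and Oasl2 (1.24), and for Kdm5b (0.96), Slc2a3 (0.56) and Peg10 (0.72). Negative values were found for the vessel and blood genes Emcn (-2.53), Cdh5 (-2.05), Pecam1 (-1.55) and Hbb-y (-1.15) and for the neural genes Ncam1 (-0.92) and Tagln3 (-0.84).

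In the knockdown NPC arrays Emcn read 6.64, 6.39 and 5.44 and Cdh5 7.50, 7.15 and 6.61, below each of the control NPC arrays. The call was kept without each of the 12 arrays in turn by 7 of the 43, Zfp979, Dnmt3l, Ddx4, Mael, Tcf15, Id3 and Perp, and with the replicate number as a block by 25. No group held enough samples for a test of single outlying arrays.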

How the results depend on the processing

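The counts of genes higher and lower in the control transition stayed within 1.5 times their values under each alternative run: a filter on low values, averaging instead of choosing among probe sets, array weights, a robust prior with an intensity trend, quantile or median scaling, the 6 control arrays alone, adjusted p under 0.01, and each control array left out (4060 to 4412 genes higher and 4336 to 4553 lower; 1501 to 1625 and 1333 to 1443 at least 2-fold). With the replicate block on all 12 arrays, a paired fit, the counts were 4441 and 4735. The 6 control arrays alone gave fewer, 3918 higher and 4146 lower, ended 18 calls of named genes and added 1. On the 6 control arrays the replicate block gave 4322 and 4618, ended 9 calls of named genes and added 3. Of 525 named genes 437 passed. Of these, 407 kept the call under each of the 15 alternatives in which they were tested, 30 were lost under at least 1 and none reversed. The filter on low values tested only 430 of the 525 named genes, and the threshold of 0.01 was not among the 15. Of the 88 that did not pass, 22 did so under at least 1. The count of genes differing between the transitions, 267, did change: it was 152 with the replicate block on all 12 arrays, 955 with array weights, 18 at adjusted p under 0.01, and 35 to 546 with 1 array left out; the causes were not tested, apart from the stricter threshold. The values hold no detection calls, so low levels cannot be told from none.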
